A study of Mus musculus with 4 samples.

Results

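The integrated stress response and the unfolded protein response were followed through 10 genes in infarcted mouse hearts: Atf4, Ddit3, Trib3, Chac1, Asns and Gdf15 for the former, Hspa5, Xbp1, Hyou1 and Manf for the latter. They were taken by symbol, 10 of the 32285 genes in the tables, and all 10 passed the minimum of 100 UMIs (unique molecular identifiers, each marking 1 captured RNA molecule) over the 4 sections. The data were Visium spatial transcriptomes, in which RNA from a frozen 10 µm section is captured on a grid of spots, each a small region that can hold several cells of different types. Each section came from a heart of an adult female ICR mouse aged 12 weeks, in which the left anterior descending coronary artery had been tied off for good, a surgical model of myocardial infarction. There was 1 section of 1 mouse at each of day 1, day 4, day 7 and day 14 after this surgery, all from the same procedure and with no further treatment named in the labels. The day of the earliest section was taken from the labels, since the text of the study is not uniform about it. No sham or uninjured section was analysed here, so every difference is between spots of an infarcted heart or between infarcted hearts.

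Both responses adjust protein production to cellular stress. In the integrated stress response, kinases that sense a lack of amino acids, viral RNA, heme shortage or misfolded protein phosphorylate the translation factor eIF2α; overall translation falls while the transcription factor ATF4 is made in larger amounts and drives genes of amino acid supply, redox balance and cell death. In the unfolded protein response, the endoplasmic reticulum (ER) sensors IRE1, PERK and ATF6 detect misfolded protein and raise chaperones, folding enzymes and degradation factors, and PERK links both responses. In the heart, ischemia and high secretory load are known triggers. UMIs count RNA of a gene as a whole and show neither the translation of ATF4 nor the splicing of Xbp1.

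Spots were ranked within each section in 2 ways and cut into 4 groups of equal size. The stress ranking used the share of UMIs from Ankrd1, Flnc, Xirp2 and Nppb, genes known to rise in strained cardiomyocytes at the border of an infarct. The collagen ranking used the share from Col1a1, Col1a2 and Col3a1, the fibrillar collagen chains of scar tissue. None of the 10 genes is a ranking gene, but genes that vary with a ranking gene differ between groups by construction. After spots with over 1% hemoglobin UMIs were left out, 7503 of 9102 spots remained, with 1679 to 2086 spots, 9292678 to 15713779 UMIs and a median of 5188 to 8799 UMIs per spot in each section. The rankings use the same spots: 25.1% to 43.0% of the top stress group was also in the top collagen group, so results of the 2 rankings are not independent. Barcodes are printed positions, and 1572 to 1918 of them recurred between any 2 sections, which says nothing about shared cells.

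Cardiomyocyte markers were present in every group. The summed level of 7 of them (among them Myh6, Tnnt2 and Ttn) was 30833 to 64112 UMIs per 1000000 (CPM) in the bottom stress group and 33064 to 59122 CPM in the top one. Along the collagen ranking it was 56782 to 64728 CPM in the bottom group and 11398 to 47245 CPM in the top one. Macrophage markers (8 genes) went from 234–415 CPM to 1062–6819 CPM and fibroblast markers (7 genes) from 1382–2479 CPM to 2320–10269 CPM, while the median depth per spot went from 5342.5–9896 UMIs to 2171–6072 UMIs. In edgeR's test, described below, 7 of 7 cardiomyocyte markers were lower and 8 of 8 macrophage markers higher in the top collagen group. In the stress ranking edgeR called 0 of 7 and 0 of 8, with 1 and 0 at an unadjusted p under 0.05 and 0 of either by DESeq2, and 7 of 10 markers of fast skeletal muscle were lower in the top group by edgeR and 0 by DESeq2. Of mesothelium, 2 of 3 tested markers were lower there (DESeq2 2), and of atrium 1 of 4 tested was higher and 1 lower (DESeq2 1). The summed atrial list was at 52.1 to 785 CPM in the bottom stress group and 499 to 21866 CPM in the top one. This list includes Nppa, which the paper names as a marker of the border zone, so the sum cannot tell atrium from border. The median log2 difference of its 4 tested genes was −0.31. Other tissue moved along the collagen ranking too. In its top group edgeR called higher 8 of 10 markers of fast skeletal muscle (DESeq2 1) and 4 of 4 of smooth muscle. Also higher were 3 of 3 tested of neutrophils and 3 of 3 tested of mesothelium. Of B and plasma cells 2 of 3 tested were higher (DESeq2 2), and of atrium 3 of 4 tested (DESeq2 2). Lower were 2 of 5 endothelial markers, and 0 of 3 tested adipocyte markers were called. Summed B and plasma cell markers went from 11.2–50.2 CPM in the bottom group to 52.9–819 CPM in the top one. None of the markers tested was at 0 UMIs. In sums over spots, fewer cells of a type and less RNA per cell cannot be told apart.

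Upstream sequence was available from RefSeq (GRCm38.p6) for 8 of the 10 genes, as 9 promoters because Gdf15 has 2 starts; Hyou1 and Manf were not among them. The 250 bases before each start were searched on both strands for 4 elements known from these responses. These were the ER stress element ERSE (CCAAT, then any 9 bases, then CCACG), ERSE-II (ATTGG, any 1 base, then CCACG), the CARE element bound by ATF4 with C/EBP partners (TGATGNAA), and the UPRE element of XBP1 (TGACGTGG). Among all 32851 promoters of the same length, 0.113% held ERSE, 0.0304% ERSE-II, 3.45% CARE and 0.563% UPRE. Matches were found for Hspa5, Asns and Chac1, which are shown because they place the classical elements of each response; the matching letters are in capitals, and no other of the 4 elements overlapped them.
Hspa5, ERSE, chr2:34772019-34772048, + strand, bases 71 to 42 before the RefSeq start: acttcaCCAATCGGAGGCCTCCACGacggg
Asns, CARE, chr6:7693214-7693243, − strand, bases 34 to 5 before the RefSeq start: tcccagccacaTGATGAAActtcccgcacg
Chac1, CARE on the opposite strand, chr2:119351038-119351067, + strand, bases 204 to 175 before the RefSeq start: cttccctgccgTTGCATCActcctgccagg
The Hspa5 and Asns stretches lie before the RefSeq start but inside the gene as GENCODE draws it. A match describes letters only. Gdf15, the gene with the widest differences below, had no match in the 250 bases before its outer start, which read as follows, 5′ to 3′ on the − strand.
Gdf15, chr8:70632457-70632706, − strand: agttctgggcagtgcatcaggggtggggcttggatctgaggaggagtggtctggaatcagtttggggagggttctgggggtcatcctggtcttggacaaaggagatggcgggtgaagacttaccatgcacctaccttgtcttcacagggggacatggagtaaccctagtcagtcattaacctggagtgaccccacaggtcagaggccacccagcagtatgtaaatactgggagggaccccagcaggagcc

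By GENCODE (GRCm38), the genes of the integrated stress response lie at chr15:80255184-80257541 (+, Atf4), chr10:127290774-127296288 (+, Ddit3), chr2:152337422-152344032 (−, Trib3), chr2:119351229-119354381 (+, Chac1), chr6:7675169-7693254 (−, Asns) and chr8:70629393-70632456 (−, Gdf15). Those of the ER response lie at chr2:34771970-34777547 (+, Hspa5), chr11:5520659-5525893 (+, Xbp1), chr9:44379490-44392369 (+, Hyou1) and chr9:106838312-106891979 (−, Manf). The tables list Ddit3 under 2 identifiers, of which the second overlaps the first and held 0 UMIs. The end of Ddit3 overlaps Mars on the opposite strand, at chr10:127296221-127311786. Whether strand was used in counting is not given in the sources used here, so Ddit3 values may include reads of that gene.

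Over whole sections, day 14 was the low point. The exact 95% interval of the day 14 over day 1 ratio lay below 1 for all 10 genes, and so did the ratio over day 7, while over day 4 it did so for 9. Over all tested genes the interval lay below 1 for 47.7%, 61.4% and 52.7% in the same order, so lower values at day 14 were common. The median log2 ratio of day 14 over day 1 was −1.16 for the 10 genes and −0.28 for all genes. With 1 mouse per day, these intervals cover counting error only; they compare 4 sections and allow no test between days. How much of each section is infarct, border or remote muscle was not matched between the days, and this part of the difference was not tested.

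Gdf15, a secreted cytokine of the TGF-β superfamily that cells release under stress, stood at 28.9 CPM at day 1, 21.5 at day 4, 29.2 at day 7 and 2.93 at day 14. The first 3 sections were close to each other and the day 14 section was far lower (log2 ratio over day 1 −3.30, interval −3.78 to −2.85). Asns, which makes asparagine, read 7.20, 5.23, 5.70 and 1.59 CPM in the same order (log2 ratio of day 14 over day 1 −2.18). Atf4, the transcription factor at the centre of the integrated stress response, was at 101, 82.9, 85.3 and 45.1 CPM, highest at day 1. Ddit3 encodes CHOP, a transcription factor of prolonged ER stress, and read 26.2, 34.1, 43.9 and 21.5 CPM. It was highest at day 7, and its ratio of day 14 over day 1 was the smallest of the 10 in size (log2 −0.28, interval −0.51 to −0.06). Trib3, a pseudokinase induced by ATF4 and CHOP, and Chac1, which degrades glutathione, stayed between 1.78 and 5.86 CPM in every section and rest on 149 and 196 UMIs in all.

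The 4 ER genes had a common order, with days 1 and 7 above day 4 and day 14 lowest. Hspa5, the main ER chaperone BiP, was at 600.3 CPM at day 1, 389.9 at day 4, 558 at day 7 and 301 at day 14. Manf, an ER protein secreted on stress, was at 139, 101, 144 and 50.02 CPM. Hyou1, a large ER chaperone that acts with BiP, was at 32.6, 19.0, 29.7 and 9.48 CPM. Xbp1, the transcription factor spliced by IRE1, was at 72.8, 62.4, 83.6 and 34.0 CPM. Between day 1 and day 7 the interval of the ratio spanned 1 for 6 of the 10 genes, lay above it for 2 and below it for 2, so these sections have no clear order for most of the genes.

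The stress ranking asked whether the 2 responses run higher where strained cardiomyocytes lie. Gdf15 did so in all 4 sections, and the other 9 genes did not differ in a way the days shared. From the bottom to the top group, Gdf15 read 1.01, 1.99, 15.2 and 92.2 CPM at day 1. It read 11.1, 7.13, 12.6 and 56.6 CPM at day 4, and 7.53, 5.15, 12.8 and 78.2 CPM at day 7. At day 14 it read 1.02, 1.14, 1.33 and 8.23 CPM, the last of these resting on 32 UMIs. In each section the top group stood alone and the lower groups lay close together, with the third group above the lower ones at day 1.

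The share of spots with a Gdf15 UMI was 35.2%, 31.7%, 27.9% and 4.03% in the top stress group at days 1, 4, 7 and 14, against 0.634%, 8.33%, 2.60% and 0.575% in the bottom group. The bottom group held 3 Gdf15 UMIs at day 1 and 3 at day 14. The log2 ratio of the groups was 6.52 (interval 4.96 to 8.80) at day 1, 2.35 (1.84 to 2.89) at day 4, 3.38 (2.57 to 4.31) at day 7 and 3.01 (1.33 to 5.36) at day 14. The test across sections was edgeR's quasi-likelihood test on UMIs summed per section and group, with the section as a block. It ran over 11614 genes with Benjamini-Hochberg adjustment. A difference common to the sections was set against the spread of all 16 sums, middle groups included. The p-value thus measures agreement between the days only in part. Gdf15 was higher by 3.39 on the log2 scale (SE 0.40, edgeR adjusted p = 0.0012), 10.5-fold. It was the sole member called, where 0.827% of all genes tested were called, 0.517% higher and 0.31% lower. Of these calls over all genes 62.5% were higher with TMM scaling and 78.5% with totals alone, and Gdf15 was called under both. The call was lost without the day 7 section (log2 3.36, edgeR adjusted p = 0.0709), with the size unchanged to within its error. It was also lost with no section block, and with only the 2 compared groups in the fit (edgeR adjusted p = 0.291). In that last fit 1 of all genes was called, against 96.

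**Figure D1:**
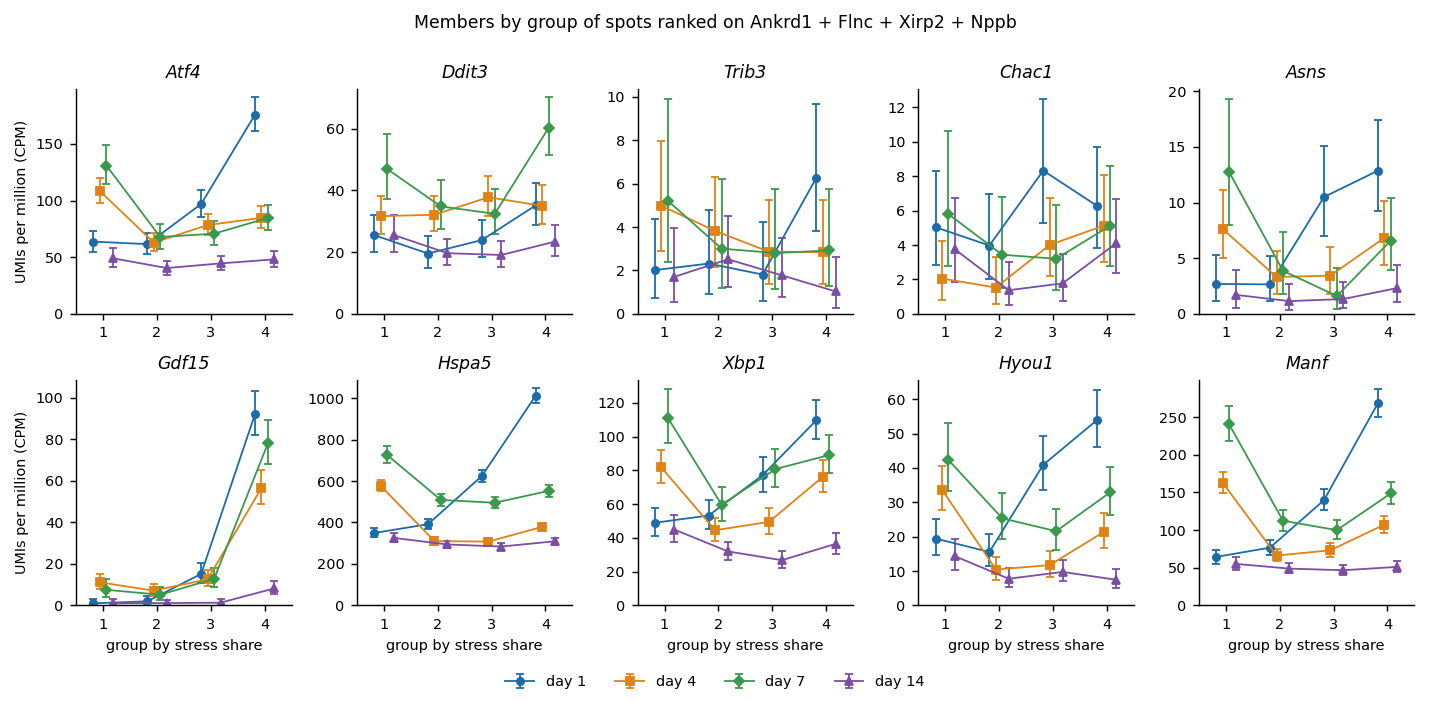
UMIs per 1000000 (y axis, linear, from 0, a separate scale for each gene) of the 10 genes in the 4 groups of spots ranked on the summed share of Ankrd1, Flnc, Xirp2 and Nppb (x axis, 1 lowest, 4 highest), with 1 line per section (days 1, 4, 7 and 14) and exact 95% counting intervals as bars. Gdf15 is highest in group 4 of every section, while Atf4, Hspa5, Xbp1, Hyou1 and Manf are highest in group 4 at day 1 and in group 1 at days 4 and 7.

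The day 1 section differed from the later ones in the ER genes. Hspa5 read 349, 392, 624 and 1012 CPM from the bottom to the top stress group at day 1, higher in each group than in the last. At day 4 it read 577, 310.2, 308 and 379 CPM, at day 7 it read 725, 509, 495 and 552 CPM, and at day 14 it read 326, 294, 284 and 309 CPM. At days 4 and 7 the bottom group was thus the highest, and at day 14 the groups lay close together. Manf went from 64.4 to 268 CPM at day 1 and went from 163 to 107 CPM at day 4, from 240.5 to 149 CPM at day 7 and from 55.2 to 51.2 CPM at day 14. Hyou1 went from 19.5 to 53.9, 33.7 to 21.3, 42.3 to 32.9 and 14.3 to 7.46 CPM, and Xbp1 from 49.0 to 109.8, 81.7 to 76.2, 111 to 89.1 and 45.0 to 36.5 CPM.

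Atf4 was likewise highest in the top group at day 1 and in the bottom group at days 4 and 7, at 63.8, 61.6, 97.0 and 176 CPM from bottom to top at day 1 but 108, 62.9, 78.4 and 84.8 CPM at day 4 and 131, 67.8, 70.8 and 84.7 CPM at day 7. At day 14 its groups lay between 40.4 and 49.1 CPM. Asns went from 2.68 to 12.9 CPM at day 1 and from 12.7 to 6.57 CPM at day 7, and Trib3 from 2.01 to 6.27 CPM at day 1. The interval of the top over bottom ratio lay above 1 for 9 of 10 genes at day 1, all but Chac1. It lay above 1 for Gdf15 alone at each later day, and below 1 for 4 genes at day 4, 4 at day 7 and 1 at day 14. Over all tested genes it lay above 1 for 41.0%, 15.3%, 9.02% and 6.61% at days 1, 4, 7 and 14, and below 1 for 12.6%, 8.59%, 17.4% and 7.07%. The median log2 ratio of the 10 genes was 1.50, −0.26, −0.38 and −0.09 at days 1, 4, 7 and 14, beside 0.47, 0.08, −0.11 and 0.01 over the tested genes with UMIs in both groups. In the test across sections the other 9 genes lay between −0.21 and 0.25 on the log2 scale, with edgeR adjusted p from 0.856 for Chac1 to 1.0 for Hspa5. The difference between the sections was not tested, since there was 1 section a day.

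The bottom stress group did not hold the same tissue in the 4 sections. Its share of collagen UMIs was 0.0505% at day 1, 1.20% at day 4, 2.06% at day 7 and 0.322% at day 14, and its macrophage markers were at 305, 3077, 3218 and 981 CPM. In the top group the collagen share was 0.147%, 1.25%, 0.757% and 0.140%, and macrophage markers were at 977, 2296, 1302 and 489.99 CPM. At day 7 the bottom group also held fast skeletal muscle markers at 12095 CPM, against 153 CPM in the top group. Macrophage markers were thus higher in the top group at day 1 and in the bottom group at days 4, 7 and 14, and the part of these values in the result was not tested.

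The collagen ranking asked the same of spots with a high collagen share, and here more of the genes differed. The collagen share of its top group was 0.257%, 3.49%, 3.88% and 0.876% at days 1, 4, 7 and 14. Cardiomyocyte markers in that group were at 40885, 11398, 16594 and 47245 CPM, so it did not hold the same tissue in the 4 sections. Of the 10 genes, 6 were higher in the top collagen group and none lower: Gdf15, Asns, Hyou1, Manf, Xbp1 and Atf4. This stands beside 55.1% of all tested genes called, 29.3% higher and 25.8% lower, so a call in this ranking is common. Section by section, the interval of the top over bottom ratio lay above 1 for 8, 10, 9 and 7 of the 10 genes. Over all tested genes it did so for 42.4%, 67.5%, 56.7% and 46.5% at days 1, 4, 7 and 14. The median log2 ratio was 1.10, 1.98, 1.65 and 1.08 for the 10 genes and 0.54, 1.16, 0.98 and 0.65 over all tested genes. The sizes of Gdf15 and Asns, given next, were the widest of the 10 in the fit.

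Gdf15 read 9.59, 22.7, 36.6 and 49.8 CPM from the bottom to the top collagen group at day 1, a climb over all groups. It read 3.57, 6.53, 35.2 and 56.7 CPM at day 4, 3.99, 9.48, 50.3 and 69.4 CPM at day 7, and 1.31, 1.04, 2.18 and 14.2 CPM at day 14. At days 4 and 7 the upper pair of groups stood above the lower pair, and at day 14 the top group stood alone. The fitted difference was 2.61 on the log2 scale (SE 0.37, edgeR adjusted p = 5.1e-05). Asns read 3.64, 4.65, 7.38 and 14.3 CPM at day 1, 0.713, 1.69, 4.66 and 19.0 CPM at day 4, 2.39, 2.27, 5.88 and 17.5 CPM at day 7, and 0.876, 1.25, 1.96 and 3.41 CPM at day 14. It was highest in the top group of every section, by 2.09 on the log2 scale (SE 0.32, edgeR adjusted p = 7.1e-05), although at day 14 alone its interval included no difference (log2 ratio 1.96, interval −0.12 to 4.23).

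**Figure D2:**
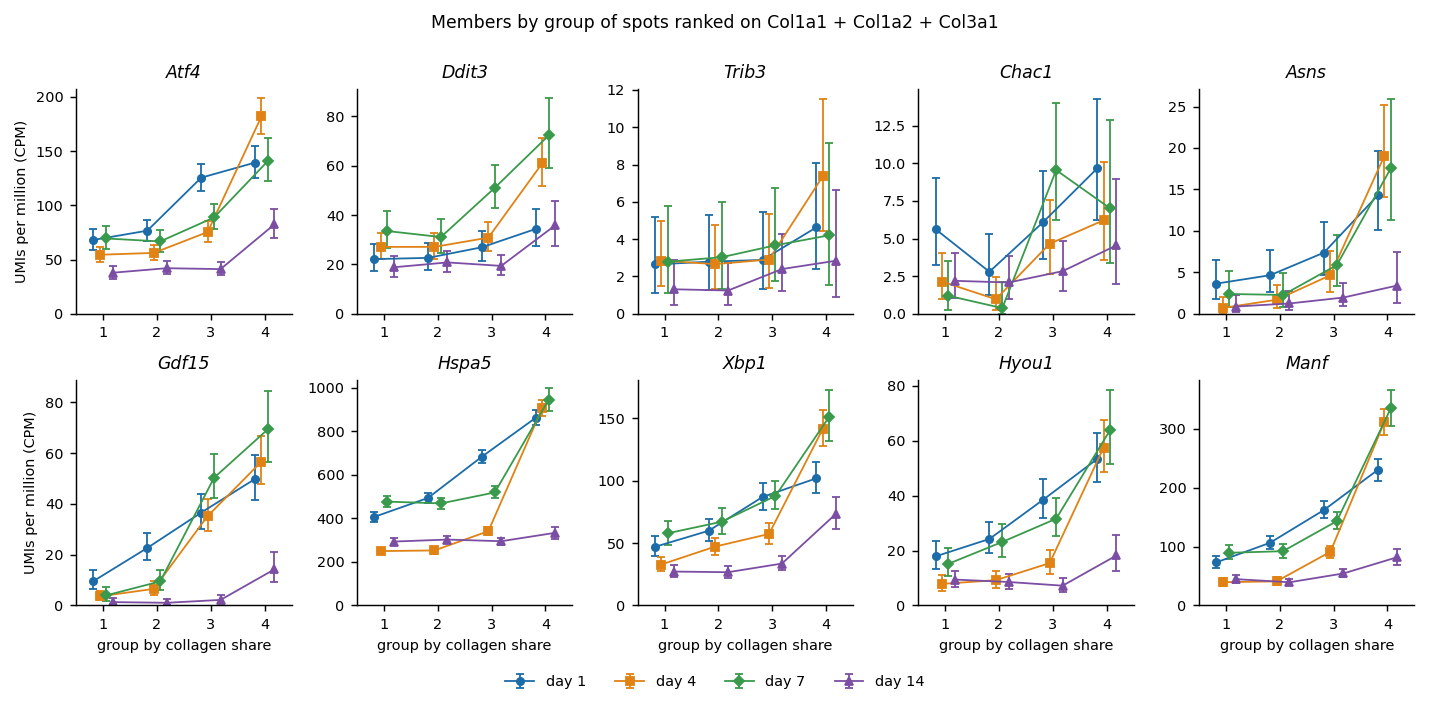
UMIs per 1000000 (y axis, linear, from 0, a separate scale for each gene) of the 10 genes in the 4 groups of spots ranked on the summed share of Col1a1, Col1a2 and Col3a1 (x axis, 1 lowest, 4 highest), with 1 line per section and exact 95% counting intervals as bars. Gdf15, Asns, Manf, Hyou1, Xbp1, Atf4 and also Hspa5, which was not called, are highest in group 4 of every section. Hspa5 has its smallest spread over the groups at day 14, from 293 to 333 CPM.

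Among the ER genes, Manf read 73.1, 106, 162 and 230.2 CPM over the collagen groups at day 1 and 39.5, 40.9, 91.1 and 311 CPM at day 4. It read 89.4, 92.1, 143 and 334 CPM at day 7 and 44.7, 39.3, 54.3 and 81.9 CPM at day 14. The top group was the highest each time, with the widest gap at day 4 (log2 ratio 2.98) and the narrowest at day 14 (0.87). Hyou1 went from 17.9 to 53.3, 7.85 to 57.4, 15.2 to 63.8 and 9.42 to 18.2 CPM between the bottom and top groups of days 1, 4, 7 and 14, and Xbp1 from 47.0 to 102, 32.8 to 142, 57.9 to 151 and 27.2 to 73.3 CPM. Fitted differences were 1.11 for Manf (SE 0.21, edgeR adjusted p = 0.000355), 1.13 for Hyou1 (SE 0.22, edgeR adjusted p = 0.000375) and 0.73 for Xbp1 (SE 0.14, edgeR adjusted p = 0.000283). Hspa5 was the ER gene that missed the threshold (log2 0.28, edgeR adjusted p = 0.278), with 406 to 861 CPM at day 1, 249 to 905 CPM at day 4, 476 to 944 CPM at day 7 and 293 to 333 CPM at day 14. Its log2 ratio was 1.08, 1.86, 0.99 and 0.18 in these sections, beside medians of 0.54, 1.16, 0.98 and 0.65 over all tested genes. Hspa5 did pass at a higher count minimum, given below.

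Atf4 went from 68.1 to 139 CPM at day 1, 54.4 to 182 CPM at day 4, 69.4 to 141 CPM at day 7 and 37.9 to 82.4 CPM at day 14. Its log2 ratio was 1.03, 1.74, 1.02 and 1.12, beside medians of 0.54, 1.16, 0.98 and 0.65 over all tested genes. Its fitted difference was 0.45 (SE 0.14, edgeR adjusted p = 0.0122), a call that was lost without day 4 (log2 0.38, edgeR adjusted p = 0.0779) and without day 14 (log2 0.42, edgeR adjusted p = 0.0697). The Atf4 call was also lost with no section block and with only the 2 compared groups in the fit. Against spots of neither top group it was lost too (log2 0.52, edgeR adjusted p = 0.0708), and it held under 14 of 19 alternatives. Ddit3 was also higher in the top than in the bottom group of all 4 sections (22.2 to 34.4, 27.1 to 60.9, 33.5 to 72.2 and 18.8 to 35.8 CPM), as 63.9% of tested genes were, but it was not called (log2 0.17, edgeR adjusted p = 0.256). Chac1 (log2 0.54, edgeR adjusted p = 0.270) and Trib3 (log2 0.22, edgeR adjusted p = 0.555) were not called either. These calls depend on the count minimum. At the study's 1000 UMIs per gene, also with TMM, all 6 members tested were called higher, Hspa5 and Ddit3 among them. Over all genes at that minimum, 1720 were called higher and 1645 lower, where 4769 genes reached it with the ranking genes counted. A call was thus common at this setting too.

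The scaling decides part of this. Fitted differences use TMM scaling, which centres most genes near 0, while CPM divides by the total. The median difference of all genes was 0.08 with TMM and 0.86 with totals alone in the collagen ranking, −0.02 and 0.10 in the stress ranking, and −0.04 and −0.56 for the comparison of stress-only and collagen-only spots that follows. With totals, all 10 genes were called higher in the top collagen group, Hspa5 by 1.07, Ddit3 by 0.97, Trib3 by 1.02 and Chac1 by 1.29, and calls over all genes were 88.1% higher, against 53.1% with TMM. Of all 11614 genes tested, 7792 were called higher and 1056 lower with totals, so such a call was common. The median of the 10 genes with TMM was 0.64, beside 0.08 for all genes. Cardiomyocyte, macrophage, other marker and depth values moved along this ranking, as given above, and their part in the result was not tested.

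To part the rankings, spots in the top stress group alone (stress-only) were set against spots in the top collagen group alone (collagen-only). Gdf15 was higher in stress-only spots and Hyou1 in collagen-only spots, and the other 8 genes did not pass the test. Over all genes tested, 12.6% were called higher and 13.6% lower in stress-only spots. Calls were thus no more frequent among the genes followed here than over all genes. Gdf15 stood at 100.5 CPM in stress-only and 19.3 CPM in collagen-only spots at day 1. It stood at 44.1 and 37.0 CPM at day 4, 60.4 and 21.0 CPM at day 7, and 2.70 and 1.19 CPM at day 14, the last being 1 UMI. Stress-only spots were the higher at days 1 and 7, and the intervals of the ratio spanned 1 at days 4 and 14.

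Spots in both top groups held 80.2 CPM of Gdf15 at day 1, 90.2 at day 4, 154 at day 7 and 26.1 at day 14, and spots in neither held 3.48, 5.43, 6.73 and 1.18 CPM. From day 4 on, Gdf15 was thus highest where both kinds of genes were high. The fitted difference between stress-only and collagen-only spots was 1.70 (SE 0.41, edgeR adjusted p = 0.0136), where 26.2% of all genes were called, 12.6% higher and 13.6% lower. It was lost without day 7 (log2 1.59, edgeR adjusted p = 0.140), without day 14 (log2 1.84, edgeR adjusted p = 0.0506) with every spot thinned to 1300 UMIs (log2 1.32, edgeR adjusted p = 0.0892), with no section block (log2 1.78, edgeR adjusted p = 0.127) and with only the 2 compared groups in the fit (log2 1.82, edgeR adjusted p = 0.102). With TMM 48.2% of the called genes were higher in stress-only spots, with totals alone 9.39%.

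**Figure D3:**
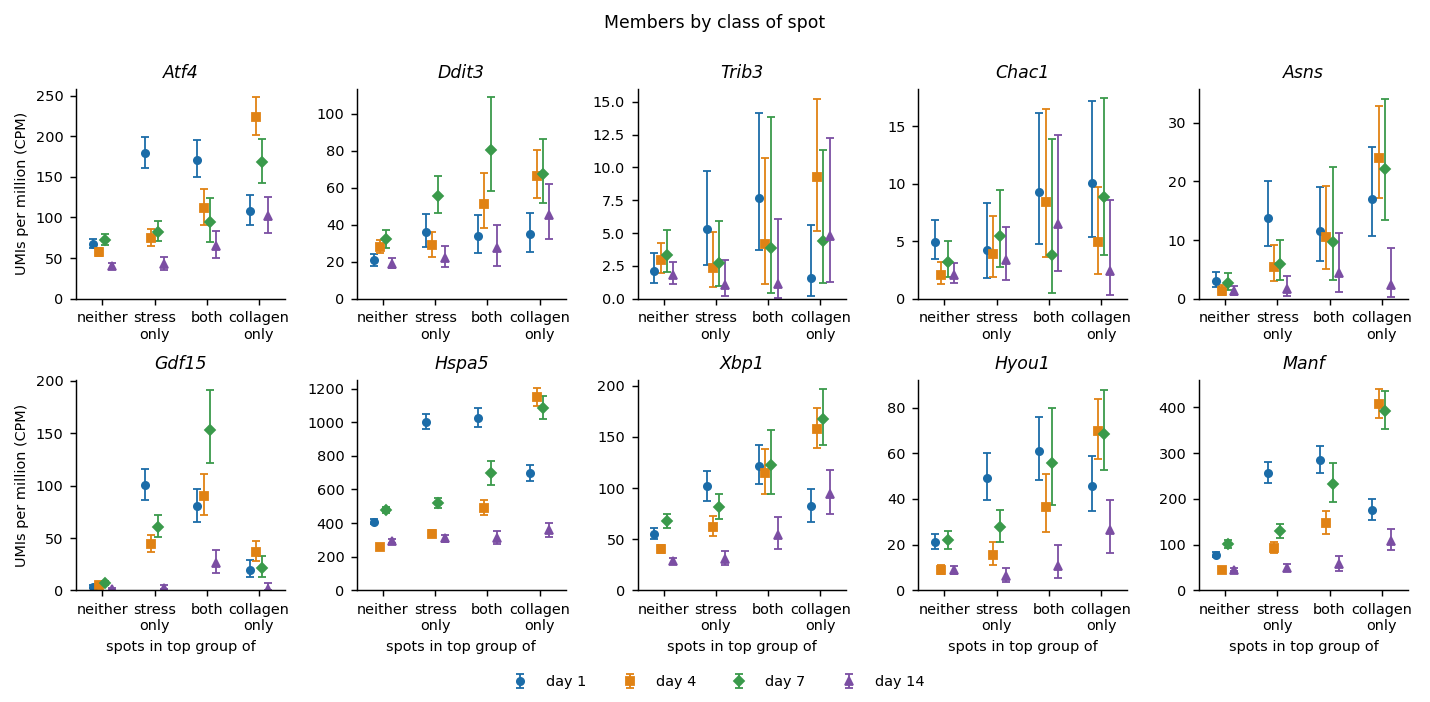
UMIs per 1000000 (y axis, linear, from 0, a separate scale for each gene) of the 10 genes in spots of neither top group, of the top stress group only, of both and of the top collagen group only (x axis), with 1 point per section (days 1, 4, 7 and 14) and exact 95% counting intervals as bars. At days 4 and 7 Hspa5, Manf, Hyou1, Xbp1 and Atf4 are highest in collagen-only spots, while at day 1 Hspa5 is at 1003 CPM in stress-only and 697 CPM in collagen-only spots.

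Hspa5 showed how the days differed between these kinds of spot. It read 1003 CPM in stress-only and 697 CPM in collagen-only spots at day 1, but 338 and 1149 CPM at day 4, 519 and 1087 CPM at day 7, and 309 and 356 CPM at day 14. Manf had the same order, with 256 and 175 CPM at day 1 but 92.5 and 407 CPM at day 4, 129 and 393 CPM at day 7, and 49.2 and 108 CPM at day 14. Atf4 too was higher in stress-only spots at day 1 (179 and 108 CPM) and higher in collagen-only spots later (75.0 and 224, 82.5 and 168, 42.8 and 101 CPM).

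Hyou1 was at 49.2 and 45.7 CPM in stress-only and collagen-only spots at day 1, close together, and at 15.6 and 69.6, 27.5 and 68.5, and 6.40 and 26.2 CPM at days 4, 7 and 14. Its fitted difference fell by 0.80 on the log2 scale from collagen-only to stress-only spots (SE 0.26, edgeR adjusted p = 0.0382). That call was lost without day 4 (log2 −0.48, edgeR adjusted p = 0.309), without day 7 (−0.82, 0.202 for the edgeR adjusted p) and without day 14 (−0.66, 0.150 for the edgeR adjusted p). Intervals of the stress-only over collagen-only ratio lay above 1 for 4 of 10 genes at day 1 and below 1 for none. They lay below 1 for 8 genes at day 4, 6 at day 7 and 6 at day 14, and above 1 for Gdf15 alone, at day 7. Over all tested genes they lay above 1 for 7.66% at day 1, and below 1 for 52.3%, 43.8% and 37.3% at days 4, 7 and 14. The median log2 ratio of the 10 genes was 0.42, −1.67, −1.04 and −1.08 at days 1, 4, 7 and 14, beside −0.11, −0.73, −0.68 and −0.65 over tested genes. With day 1 left out, 5 genes were called lower in stress-only spots: Atf4 (−0.62), Asns (−1.23), Xbp1 (−0.65), Manf (−1.01) and Hyou1. Calls over all 11614 genes rose too, to 2371 lower and 2553 higher, from 1577 and 1465 with all sections.

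Collagen-only spots were shallower, with a median of 1332.5 to 5440 UMIs per spot, against 6232.5 to 9075 in stress-only spots. Their cardiomyocyte markers were at 5133 to 44032 CPM against 35557 to 60651 CPM, and their macrophage markers at 981 to 8789 CPM against 354 to 1861 CPM. Their B and plasma cell markers were at 73.5 to 1495 CPM against 19.2 to 60.8 CPM. The part of these in the result was not tested.

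Each kind of spot was also set against spots in neither top group, a comparison chosen after the data were seen. In stress-only spots Gdf15 alone was higher (log2 3.06, SE 0.41, edgeR adjusted p = 0.0109), beside 0.301% of all genes called, 0.207% higher and 0.0947% lower. Collagen-only spots had 5 members higher, beside 50.7% of genes called, 26.1% higher and 24.6% lower. These were Asns (log2 2.13, SE 0.33, edgeR adjusted p = 0.000222), Gdf15 (log2 1.36, SE 0.45, edgeR adjusted p = 0.0220), Manf (log2 1.14), Hyou1 (log2 1.01) and Xbp1 (log2 0.61). Section by section, the ratio of stress-only over neither spots had an interval above 1 for 9 of 10 genes at day 1, 7 at day 4, 5 at day 7 and none at day 14, beside 37.0%, 40.8%, 23.5% and 9.34% of all tested genes. For collagen-only over neither spots it was 8, 9, 9 and 6 of 10 genes, beside 35.8%, 66.3%, 55.8% and 45.2% of all tested genes. These 2 comparisons share the spots of neither group.

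**Figure D4:**
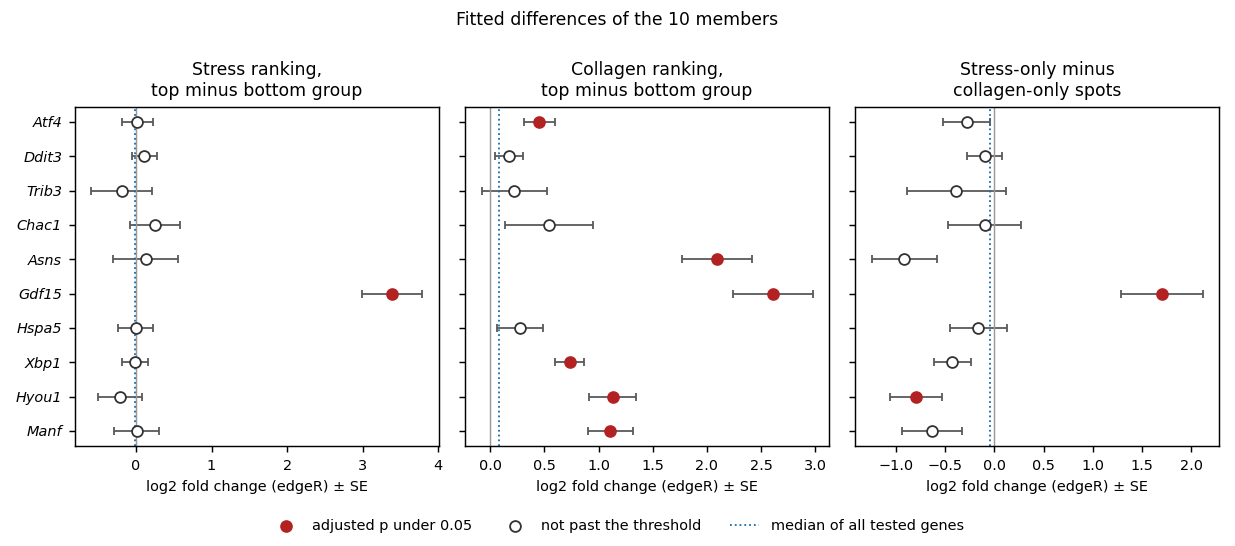
Fitted log2 fold change (x axis) of the 10 genes in the 3 edgeR comparisons, with the SE of each fit to 16 sums from 4 sections as bars. Filled red points passed an adjusted p under 0.05, open points did not, and the dotted line is the median of all 11614 tested genes under TMM scaling. Gdf15 passed in all 3, at 3.39, 2.61 and 1.70, and Hyou1 lies to the right of 0 along the collagen ranking (1.13) and to the left of 0 in stress-only against collagen-only spots (−0.80).

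The plot of fitted differences sets the comparisons side by side. Gdf15 lies apart from the others in the stress ranking, while in the collagen ranking Asns and Gdf15 lie beyond Manf and Hyou1. In stress-only against collagen-only spots all genes but Gdf15 lie below 0, with a median of −0.33 beside −0.04 for all genes. Asns (−0.91, edgeR adjusted p = 0.0537), Manf (−0.63, edgeR adjusted p = 0.134) and Xbp1 (−0.43, edgeR adjusted p = 0.101) did not pass. With totals in place of TMM, 6 of the 10 genes were called lower in stress-only spots and Gdf15 higher, beside 4679 lower and 485 higher of all 11614 genes.

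Further genes of the 2 responses were taken as 10 lists, together 129 genes tested. In the stress ranking 1 of the 129 was called, beside 0.827% of all 11614 genes, so the share was near that over all genes. Ero1l, which reoxidises protein disulfide isomerase in the ER, was higher in the top group of all 4 sections, at a mean of 26.7 CPM against 12.6 CPM in the bottom group (log2 0.94, SE 0.20, edgeR adjusted p = 0.0383). It was not called with totals in place of TMM. At an unadjusted p under 0.05, 9 of the 129 were higher and 2 lower by edgeR, beside 1201 of all 11614 genes in either direction. DESeq2 called 2 of the 129 higher after adjustment, beside 103 higher of all genes.

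In the collagen ranking 61 of the 129 were higher and 22 lower, beside 29.3% and 25.8% of all genes. With totals 107 were higher and 7 lower, beside 7792 and 1056 of all 11614 genes, so directions within lists lean on the scaling. ER chaperones and folding enzymes had 18 of 21 higher and 1 lower, with a median of 1.06. Among them were Serpinh1 (log2 1.92), the collagen chaperone, Sdf2l1 (2.06), a partner of BiP, and Creld2 (1.65), a protein of the ER lumen. ER translocation and signal peptide processing had 14 of 18 higher and none lower, with a median of 0.65, led by Sec61b (1.96) and Sec61a1 (1.73), subunits of the channel into the ER, and Ckap4 (1.72). UPR sensors and their proteases had 5 of 8 higher and 1 lower; Creb3l1 (2.53) and Creb3l2 (1.34), ER-bound transcription factors of secretory cells, and Atf6b (1.06) had the widest differences. ER-associated degradation had 6 of 12 higher and 1 lower, with Edem1 (1.65), Edem2 (1.48) and Os9 (1.21), which select glycoproteins for degradation, higher and Herpud1 (−1.34), a scaffold of the degradation complex, lower.

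On the side of the integrated stress response, serine, one-carbon and proline synthesis had the highest median, 1.88, with 5 of 9 higher and 1 lower. Pycr1 (3.08) and Aldh18a1 (2.31) make proline, which is abundant in collagen, and Phgdh (2.29) starts serine synthesis. Other targets of the response had 8 of 14 higher and 4 lower. Nupr1, a stress-induced chromatin protein, was at a mean of 101 CPM in the top and 5.92 CPM in the bottom group (log2 3.15, SE 0.35, edgeR adjusted p = 1.2e-05). Pck2 (1.20) and the amino acid transporter Slc7a5 (1.19) were also higher, while Vldlr (−1.61), a lipoprotein receptor, and Vegfa (−1.14), the angiogenic factor, were lower. In the next 2 lists the share called was not above that over all genes in either direction with TMM. Aminoacyl-tRNA synthetases split, with 2 of 19 higher (Tars 0.55, Nars 0.38) and 3 lower with TMM, but 17 higher and none lower with totals. The eIF2α kinases, phosphatase subunits and eIF2B had 2 of 12 higher, Ppp1r15b (0.81), a phosphatase subunit, and Eif2ak3 (0.77), which encodes PERK, and 2 lower, while with totals 10 were higher and none lower.

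Lists outside the ER went different ways. Mitochondrial chaperones and proteases had 8 of 8 lower in the top collagen group, with a median of −1.15; Clpx (−1.60), Dnaja3 (−1.46) and Hspa9 (−1.41) had the widest differences, and with totals 5 of 8 were lower. Cytosolic heat shock genes had 2 of 10 higher (Dnaja1 0.38 and Dnajb1 0.35) and 1 lower with TMM, and 8 higher with totals. Cardiomyocyte markers were also lower here, 7 of 7, and their part in the result was not tested.

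**Figure D5:**
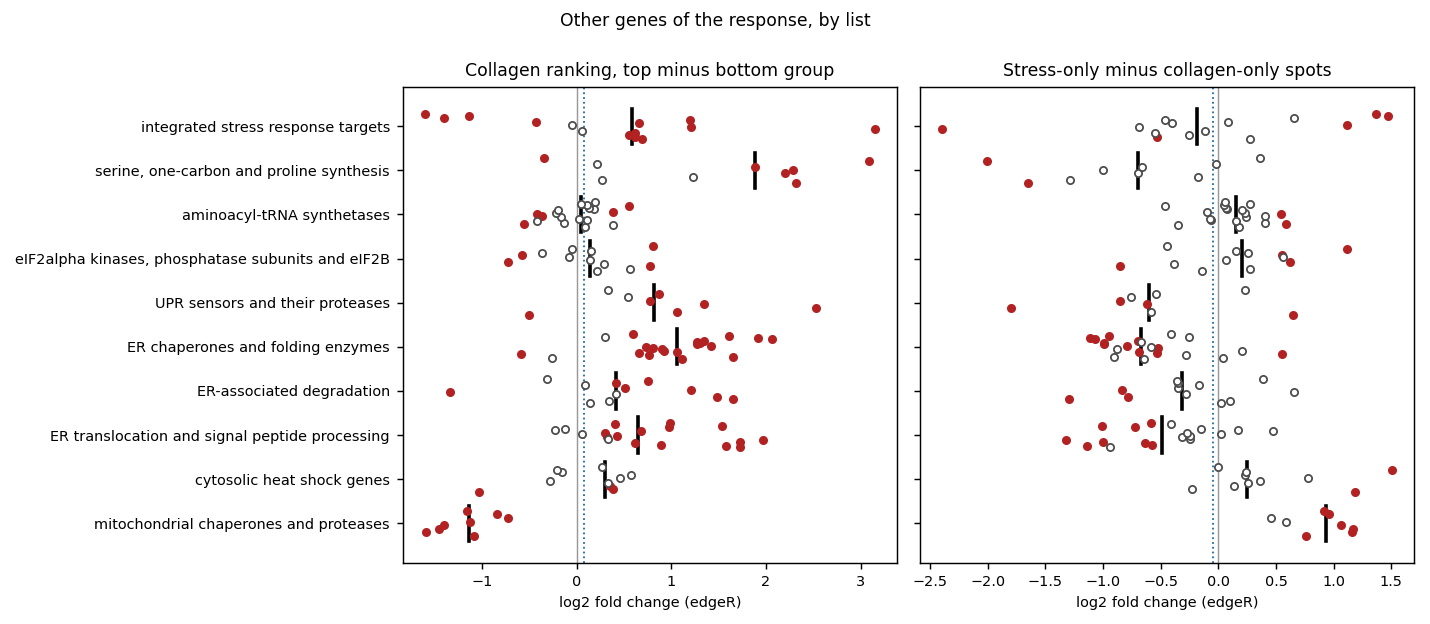
Fitted log2 fold change (x axis, edgeR with TMM scaling) of each tested gene of the 10 lists (y axis) in the collagen ranking and in stress-only against collagen-only spots; filled red points passed an adjusted p under 0.05, black bars are list medians, and the dotted line is the median of all tested genes. ER chaperones lie to the right of 0 along collagen (18 of 21 higher, 20 with totals) and mitochondrial chaperones to the left (8 of 8 lower, 5 with totals), and in stress-only spots the medians have the opposite sign (−0.67 and 0.93).

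Between stress-only and collagen-only spots, 17 of the 129 genes were higher in the former and 28 lower, beside 12.6% and 13.6% of all genes, so the share of higher calls was near that over all genes. With totals 7 were higher and 63 lower, beside 485 and 4679 of all 11614 genes. ER chaperones and folding enzymes had 10 of 21 lower and 1 higher, with Sdf2l1 (−1.07) and the disulfide isomerases Pdia3 (−0.99) and Txndc5 (−0.95) lower in all 4 sections. ER translocation had 8 of 18 lower and none higher, Rrbp1 (−1.14), Sec11c (−0.64) and Ssr4 (−0.58) among them. ER-associated degradation had 3 of 12 lower (Edem1 −1.30, Os9 −0.84, Edem2 −0.78) and none higher, and UPR sensors had 3 of 8 lower and 1 higher, with Creb3l1 (−1.80), Eif2ak3 (−0.85) and Creb3l2 (−0.62) lower. The proline genes Pycr1 (−2.00) and Aldh18a1 (−1.66) were lower too, 2 of the 9 genes of their list, with none higher.

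Targets of the integrated stress response split, with 3 of 14 higher and 2 lower with TMM, and 2 higher and 6 lower with totals. Vegfa (1.47) and Ppp1r15a (1.12), which encodes the eIF2α phosphatase subunit GADD34, were higher in all 4 sections, and Nupr1 (−2.40) and Atf5 (−0.53) lower. Vegfa stood at a mean of 152 CPM in stress-only and 75.1 CPM in collagen-only spots (SE 0.27, edgeR adjusted p = 0.0048). Mitochondrial chaperones and proteases had 6 of 8 higher (3 with totals), with Dnaja3 at 1.17, Hspa9 at 1.06 and Lonp1 at 0.96. Cytosolic heat shock genes had 2 of 10 higher, the small heat shock protein gene Hspb1 (1.51) and its partner in muscle protein quality control Bag3 (1.19), with 1 gene of the list lower with totals. Aminoacyl-tRNA synthetases had 2 of 19 higher and none lower with TMM, but none higher and 3 lower with totals. The eIF2α kinases, phosphatase subunits and eIF2B had 3 of 12 higher and 1 lower, Eif2ak3, with TMM. With totals 0 of them were higher and 2 lower.

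The 6 genes with at least 1000 UMIs were also compared in their pattern over the 32 sums of both rankings, by Pearson's r of log2(CPM + 1) against 4761 genes of at least 1000 UMIs. The sums share spots, depth and section, so r describes these sums only. Closest to Manf were Calr (0.986), Hsp90b1 (0.983) and Pdia3 (0.975), all ER chaperones or folding enzymes. Hyou1 lay closest to Calr (0.971), Ppp1ca (0.963) and Manf (0.962), Hspa5 to Manf (0.964), Canx (0.959) and Hyou1 (0.956), and Xbp1 to Pdia3 (0.968), Calr (0.965) and Arf2 (0.964). Atf4 lay closest to Ywhaz (0.968), Ap2m1 (0.967) and Sfpq (0.966), and Ddit3 to Gm47283 (0.936), H2-K1 (0.926) and Ints3 (0.924). Ddit3 stood apart from the other 5, with r of 0.63 to 0.81 to them, while those 5 had r of 0.89 to 0.96 among themselves.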

How the data were processed

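Frozen sections of 4 mouse hearts were profiled with Visium. The authors made the deposited UMI counts per gene and spot with Space Ranger 1.3.0 on mm10, and the submitters' processing notes also name Seurat 4.1.1; the counts are raw, and the aligner settings are not given in the sources used here. The labels name the earliest section day 1, and the results text of the study names day 2; the label was used. All values here were computed from those counts. As in the study, spots with over 1% hemoglobin UMIs (8 genes) were removed. The study also took out, by hand, spots near the inner and outer tissue edges, a step not taken here. Spots were ranked within sections and cut into 4 groups, UMIs were summed per section and group (16 sums per comparison), and CPM was taken against the sum of all genes, with exact Poisson 95% intervals; intervals of ratios are exact conditional ones. PCR copies are collapsed by UMIs, and all intervals cover counting error only. Groups of spots were compared with edgeR 4.0.16 (R 4.3.3, limma 3.58.1) by quasi-likelihood with TMM scaling, the section as a block and all 4 groups in the fit, over genes with at least 100 UMIs, 7 ranking genes left out, and Benjamini-Hochberg adjustment at 0.05. The study's own minimum was 1000 UMIs and its test ran over spots. Here 16 sums of spots from 4 sections entered each fit. The spread was estimated over all of these sums, not over the 2 compared groups alone. Sections differ in day and mouse, and p-values measure only in part how far the days share a difference. No doublet caller was run, since a spot is not a cell. On simulated counts with 200 genes changed by 1 on the log2 scale, edgeR recovered 69.5% of them in the stress ranking (11533 genes), 61.5% in the collagen ranking (11522 genes) and 45.5% between stress-only and collagen-only spots (11508 genes). False calls were 4 of 143, 10 of 133 and 4 of 95 in the same order. The simulation had no other group effect and 1 fixed dispersion, below the 0.038, 0.033 and 0.054 fitted in the data. These shares therefore cannot be carried over to the data as such. Alternatives were DESeq2 1.42.0, scaling by totals, other count minimums, no section block, 2 groups only, each section left out, other hemoglobin limits, deeper or thinned spots, the opposite order of ties, no skeletal muscle spots, 3 groups in place of 4, and ranking genes left out. The 10 genes, the pathway lists and the markers were chosen with earlier results of these data known. All 10 genes are named; from each list, up to 3 genes with the largest rise and up to 3 with the largest fall among those called and alike in all 4 sections; and for each gene with 1000 UMIs the 3 most alike in pattern. Motifs were searched in RefSeq promoters.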

Additional observations from a re-analysis of the deposited data

Results flagged for a closer look

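For 5 of the 10 genes the day 1 section went one way along the stress ranking and later sections the other, with counting intervals on opposite sides of no difference. The log2 ratio of the top over the bottom stress group of Atf4 was 1.46 at day 1, −0.35 at day 4 and −0.63 at day 7. For Hspa5 it was 1.53, −0.61 and −0.39 at the same days, and for Manf 2.06, −0.60 and −0.69. For Xbp1 it was 1.16 at day 1 and −0.32 at day 7, and for Hyou1 1.47 at day 1, −0.66 at day 4 and −0.94 at day 14. Over all tested genes the interval of this ratio lay above 1 for 41.0% at day 1. It lay below 1 for 8.59%, 17.4% and 7.07% at days 4, 7 and 14. How many of all genes changed side between the days was not counted. These 5 genes were higher in stress-only than neither spots at days 1, 4 and 7, a comparison chosen after seeing the data. The log2 ratio was 1.297, 0.375 and 0.123 for Hspa5, 1.71, 1.05 and 0.35 for Manf, and 0.87, 0.62 and 0.27 for Xbp1. For Atf4 it was 1.41, 0.39 and 0.19, and for Hyou1 1.21, 0.78 and 0.33, with day 7 intervals spanning no difference. At day 14 the intervals of all 10 genes did so. Over all tested genes the medians at days 1, 4 and 7 were 0.38, 0.43 and 0.26. Between stress-only and collagen-only spots, the log2 ratio at days 1, 4, 7 and 14 was 0.74, −1.58, −1.02 and −1.24 for Atf4, 0.53, −1.77, −1.07 and −0.21 for Hspa5, and 0.55, −2.14, −1.61 and −1.14 for Manf. The median over all tested genes was −0.11, −0.73, −0.68 and −0.65 in the same order, so lower ratios after day 1 were common. At day 14 Hspa5 lay above that median. With 1 mouse a day, the difference between sections was not tested, and day, mouse and section cannot be told apart.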

How the results depend on the processing

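Under the alternatives tried, 460 values of the 10 genes kept their direction and their side of the threshold, 17 passed it anew, 24 lost it and 48 changed sign; the cause was not tested. All but 7 of the sign changes were in the stress ranking, in genes that were not called. There, Hspa5 moved to 0.087 with totals, 0.025 at 10 UMIs per gene, 0.099 with no section block, 0.0030 with only the 2 compared groups, 0.012 with no hemoglobin filter, 5.0e-06 in spots of at least 1000 UMIs, 0.020 in spots thinned to 1300 UMIs, 0.015 with 3 groups in place of 4, 0.12 without Ankrd1 and 0.17 against spots of neither group, the last chosen after the data were seen. Xbp1 moved to 0.086, 0.014, 0.027 and 0.0074 under the first 4 of these, and to 0.020, 0.059, 0.032 and 0.18 with deeper spots, 3 groups in place of 4, no Ankrd1 and against neither. Hyou1 moved to 0.083 thinned, 0.11 without Ankrd1 and 0.22 against neither; Manf to −0.014 at 1000 UMIs per gene, −0.017 with no hemoglobin filter, −0.023 with a 0.5% filter and −0.011 without skeletal muscle spots; Atf4 to −0.015 with the 0.5% filter; Trib3 to 0.061 with no filter; and Ddit3 to −0.34 thinned. Leaving out a section gave ranges in the stress ranking of −0.36 to 0.20 for Atf4, −0.026 to 0.20 for Ddit3, −0.81 to 0.12 for Trib3, −0.0088 to 0.39 for Chac1, −0.38 to 0.55 for Asns, −0.38 to 0.27 for Hspa5, −0.25 to 0.090 for Xbp1, −0.63 to 0.041 for Hyou1 and −0.52 to 0.30 for Manf. Between stress-only and collagen-only spots, Ddit3 moved to 0.0070 in spots of at least 1000 UMIs and 0.069 with 3 groups in place of 4, and Chac1 to 0.11 without skeletal muscle spots; leaving out a section gave −0.25 to 0.063 for Ddit3, −0.97 to 0.18 for Trib3, −0.29 to 0.34 for Chac1 and −0.39 to 0.22 for Hspa5. Dnajb1 moved to −0.0075 in the collagen ranking with thinned spots. Of the named genes outside the 10, 806 values were alike, 194 lost the threshold and that 1 changed sign.

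Genes called in the stress ranking numbered 96, and 165 with DESeq2, 62 at 1000 UMIs per gene, 5 with no block, 1 with only the 2 groups, 56 thinned, 16 with 3 groups in place of 4, 46 without Ankrd1, 35 against neither, and 10 to 583 with a section left out, highest without day 1. In the collagen ranking 6400 were called, 3365 at 1000 UMIs and 2975 thinned. Between stress-only and collagen-only spots 3042 were called, 5164 with totals, 1767 at 1000 UMIs per gene, 185 with no block, none (0) with only the 2 groups in edgeR, where 3137 passed an unadjusted p under 0.05 and DESeq2 on all groups called 3166, 823 thinned, 1891 with 3 groups in place of 4, 1767 in spots of at least 1000 UMIs, and 1 to 4924 with a section left out (1 without day 7, 4924 without day 1). Thinning left 7 of the 10 genes testable, and Trib3 and Chac1 rest on 149 and 196 UMIs, which limits the differences detectable in them. The call of Gdf15 in the stress ranking was also lost with no block (3.36, edgeR adjusted p = 0.190) and with only the 2 groups (3.46, edgeR adjusted p = 0.291), and at 1000 UMIs per gene Gdf15 was not tested. The call of Hyou1 between stress-only and collagen-only spots held under 8 of 19 alternatives, with edgeR adjusted p up to 0.357. Between days no paired analysis was possible because each day has 1 section, while groups of spots of 1 section were paired by the section block.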
